A study of Mus musculus with 4 samples.

Results

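The genes described here encode 10 matricellular and adhesive matrix proteins: periostin (Postn), tenascin C (Tnc), tenascin X (Tnxb), fibronectin (Fn1), SPARC (Sparc), its relative Sparcl1, the thrombospondins Thbs1, Thbs2 and Thbs3, and Smoc2. They were chosen by name, and every probe set annotated to one of these symbols alone was taken. That gave 18 of the 45037 probe sets on the array that are not controls, and covered 10 of 18193 genes. A further probe set, annotated to Thbs1 and to a second gene, was left out. The tissue was the leaflets of both semilunar valves, aortic and pulmonary, from neonates, hybridised to 4 Affymetrix arrays. The 2 genotypes were Cxcr7-/-, which lacks the CXCL12-binding receptor Cxcr7 (now named Ackr3), and Control, which the labels describe as wildtype littermates. Each genotype had 2 pools, each pool held valves of 3 neonates with 2 valves per animal, and each pool was measured on 1 array. By the labels a Control animal gave 6 leaflets and a Cxcr7-/- animal 4 to 6. The labels give no strain, allele design or day of age beyond neonatal, and no treatment. A bulk signal cannot tell fewer cells of a type from less RNA per cell.

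Matricellular proteins are secreted into the extracellular matrix but serve less as structural fibres than as regulators of how cells attach to and signal from it. Fibronectin is an adhesive glycoprotein assembled by cells into fibrils and bound by integrins. Periostin and SPARC bind collagen and take part in collagen fibril assembly, and periostin is known as a product of the interstitial cells of developing heart valves. Thrombospondins and tenascins modulate cell adhesion, and thrombospondin 1 is also known as an activator of latent TGF-beta.

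Values below are MAS5 signals, the linear intensity of a probe set after scaling of each array to the same trimmed mean. They compare pools for 1 probe set and do not rank different probe sets. Fold changes are on the log2(signal + 22) scale, as Cxcr7-/- minus Control, with the standard error of limma's model and n = 2 pools per genotype. A filter kept probe sets whose mean log2 value was above the median over all non-control probe sets. It passed 13 of the 18 member probe sets and 8 of the 10 genes. Tnxb and Smoc2 stayed below it. Control replicate 2 stood apart in its cell type markers, and fold changes that move by more than 1.5 times without it are given with and without it. This was done for the kept member probe sets and for the brightest probe set of the 17 related genes named for pools that did not overlap. Values of Cd47, Fstl1, Tgfbi and of other probe sets of related genes are given with all arrays only.

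In mutant leaflets most of these genes had signals close to those of controls. Fibronectin was lower in both Cxcr7-/- pools, and Tnc and Sparcl1 were slightly higher in both. Periostin, SPARC and the thrombospondins, read on their brightest probe sets, overlapped between the genotypes. None of the 13 kept probe sets passed limma's adjusted threshold of 0.05 (smallest adjusted p 0.471), and neither did any of the 22518 probe sets tested, a background of 0%. That count for all probe sets was 673 without Control replicate 1 and 8 without Cxcr7-/- replicate 2, with no member among them. At an unadjusted p under 0.05 there was 1 member probe set of 13, beside 10.1% of all kept probe sets, so that share was near the background. It was lower in Cxcr7-/- (6.18% of all were), and 0 members were higher (3.94% of all were). Both mutant pools lay above both control pools in 5 of the 13, beside 20.1%, and below them in 3, beside 22.3%. Probe sets of the same gene read the same transcript and are not independent. By 1 probe set per gene, 3 of the 8 kept genes had pools that did not overlap between genotypes, beside 40.2% of all kept genes. On the log2(signal + 22) scale, no kept member probe set differed 2-fold or more in each of the 4 pairings of a mutant with a control pool. Of all kept probe sets, 1.07% did. On signals without the added 22, Smoc2 1415935_at, below the filter, was more than 2-fold higher in each pairing (103 and 103 against 43.8 and 37.3).

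**Figure D1:**
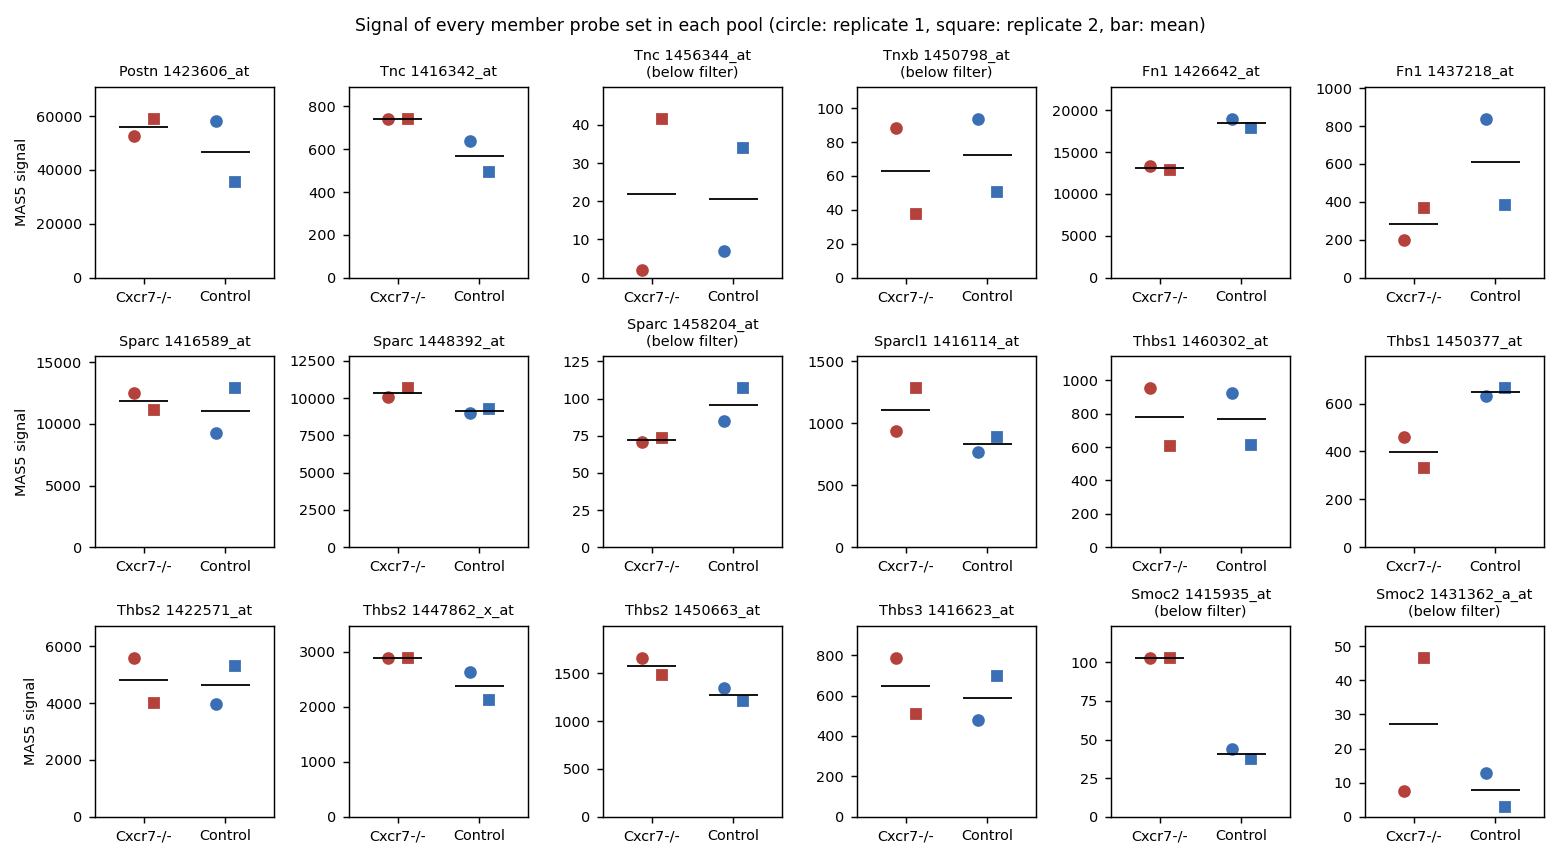
MAS5 signal (linear, from 0) of the 18 member probe sets in each pool, with Cxcr7-/- in red and Control in blue, circles for replicate 1, squares for replicate 2 and bars for the mean of the 2 pools. Fn1 1426642_at reads 13317 and 12820 in the mutant pools, below both control pools, while for Postn Control replicate 2, at 35352, lies below the other 3 pools.

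Among the members above the filter, fibronectin had the smallest unadjusted p in limma. Its brighter probe set, 1426642_at, read 13317 and 12820 in Cxcr7-/-, and 18980 and 17890 in Control. Pools of the same genotype were close to each other, 0.05 and 0.09 apart on the log2 scale by size, and the mutant mean was 70.9% of that in Control. On the log2 scale the genotypes differed by -0.50 ± 0.20 (SE), with a 95% interval from -0.95 to -0.04, an unadjusted p of 0.0370 and an adjusted p of 0.471 in limma. Leaving out each array in turn kept it between -0.54 and -0.45, with an unadjusted p of 0.153 and 0.194 where a Cxcr7-/- array was the one left out. After each array was centred on its median, which moved every log2 fold change up by 0.14, it was -0.36 ± 0.23 at an unadjusted p of 0.155.

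The dimmer Fn1 probe set, 1437218_at, was also lower in both mutant pools but far less even. It read 199 and 367 in Cxcr7-/- and 839 and 382 in Control, so that Cxcr7-/- replicate 2 and Control replicate 2 nearly met. Its log2 fold change was -1.01 ± 0.46 (unadjusted p = 0.0581, adjusted p = 0.504, limma). Leaving out a replicate 1 gave -0.46 for Control and -0.60 for Cxcr7-/-, and leaving out a replicate 2 gave -1.55 for Control and -1.42 for Cxcr7-/-. Both Fn1 probe sets therefore had the same direction, and the size of the second rested on single pools.

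Several marker lists moved with genotype beside the fibronectin values. All 7 endothelial markers were above the filter and 6 were negative, with 4 lower in both mutant pools, 0 higher in both and a median log2 fold change of -0.47. Their summed signal was 6681 and 5911 in Cxcr7-/- against 9949 and 9678 in Control. Much of that gap came from Cldn5, at 1131 and 1029 against 3172 and 4126. Pecam1 (0.06), Tek (-0.07) and Emcn (-0.10) overlapped between genotypes. Of 5 smooth muscle markers above the filter, all were negative with a median of -0.71, and their summed signal over 6 genes was 14433 and 18093 against 21807 and 29248. For the Actb controls, signal at the 3' end exceeded that at the 5' end 15.5-fold and 11.7-fold in mutant pools and 20.2-fold and 19.1-fold in controls, a measure of RNA and amplification quality. The part of these differences in the Fn1 result was not tested.

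Periostin is a fasciclin-domain protein of valve interstitial cells. Its probe set read 52492 and 59023 in Cxcr7-/-, and 58057 and 35352 in Control. Both mutant pools and Control replicate 1 lay together, and only Control replicate 2 was low. The log2 fold change was 0.30 ± 0.26 with a 95% interval from -0.30 to 0.89 (adjusted p = 0.727, limma). Without Control replicate 2 it was -0.06 ± 0.16, and without Control replicate 1 it was 0.65 ± 0.17 (adjusted p = 0.0662). The direction of the Postn difference thus depended on which control pool was used.

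Control replicate 2 also stood apart in the markers of the cells that make and surround this matrix. All 8 markers of valve interstitial cells and fibroblasts were lower there than in Control replicate 1, by a median of 0.51 on the log2 scale, as Postn was by 0.72. The proteoglycan genes Lum and Dcn, which encode lumican and decorin, read 20625 and 48668 in Control replicate 2 against 33384 and 68440 in Control replicate 1. The 9 cardiomyocyte markers went the other way and were all higher in Control replicate 2, by a median of 1.02. Over the 4 arrays, the summed signal of the cardiomyocyte markers was 58574 and 86552 in Cxcr7-/- against 101654 and 151260 in Control. The fibroblast sum was 243628 and 250487 against 257349 and 183335. The median fold change of the fibroblast list between genotypes was 0.01, while all 9 cardiomyocyte markers were negative with a median of -1.00. The part of heart muscle RNA in the Postn values was not tested.

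**Figure D2:**
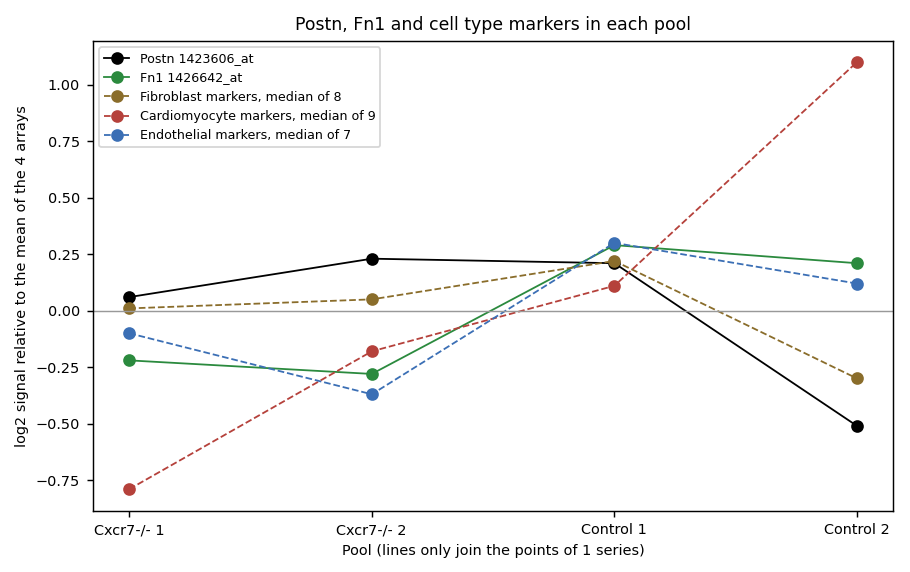
Log2 signal relative to the mean of the 4 arrays (vertical axis) in each pool (horizontal axis) for Postn, for the brighter Fn1 probe set and for the median of 3 marker lists. Postn lies at -0.51 and the fibroblast markers at -0.30 in Control replicate 2, where the cardiomyocyte markers lie at 1.10, while Fn1 lies below 0 in both mutant pools and above 0 in both control pools.

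Tenascin C, a large hexameric glycoprotein of remodelling matrix, was modestly higher in the mutant pools. Its brighter probe set read 743 and 740 in Cxcr7-/- and 640 and 496 in Control, so the genotypes did not overlap. The log2 fold change was 0.38 ± 0.29 (adjusted p = 0.692, limma), and it was 0.21 without Control replicate 2. The second Tnc probe set stayed below the filter, and its signals of 2.05, 41.6, 7.11 and 34.0 in Cxcr7-/- replicates 1 and 2 and Control replicates 1 and 2 overlapped between genotypes. Tenascin X, which associates with collagen fibrils and whose loss causes lax connective tissue, was below the filter too. It read 88.3 and 37.7 in Cxcr7-/-, and 93.8 and 50.6 in Control, with replicate 1 above replicate 2 in both genotypes.

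SPARC was one of the steadier members. Its probe set 1448392_at read 10088 and 10661 in Cxcr7-/-, and 9027 and 9283 in Control. The highest pool exceeded the lowest 1.18-fold, and the log2 fold change of 0.18 ± 0.20 had a 95% interval from -0.29 to 0.65. Probe set 1416589_at, slightly brighter, read 12551 and 11172 against 9233 and 12900, overlapped between genotypes and was at 0.12 ± 0.24, or 0.36 without Control replicate 2. Neither passed (adjusted p of 0.797 and 0.898, limma), and both intervals excluded a 2-fold difference in either direction. The third Sparc probe set lay below the filter, at 71.1 and 73.6 against 85.1 and 107, with the opposite sign to the other two.

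Sparcl1, also called hevin, shares the calcium-binding domain of SPARC and is an anti-adhesive protein. Its probe set read 937 and 1284 in Cxcr7-/- and 772 and 889 in Control. Both mutant pools were higher, but Cxcr7-/- replicate 1 was closer to Control replicate 2 than to the other mutant pool. The log2 fold change was 0.40 ± 0.29 (adjusted p = 0.676, limma), and it was 0.17 without Cxcr7-/- replicate 2 and 0.62 without Cxcr7-/- replicate 1.

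Smoc2, a SPARC-family calcium-binding protein that modulates growth factor signalling, had low signals on both of its probe sets. Probe set 1415935_at read 103 in both Cxcr7-/- pools, and 43.8 and 37.3 in Control. Both mutant pools lay above both control pools, whose signals are close to the pseudocount of 22. It missed the filter, so it was tested only in the fit without a filter, where its log2 fold change was 1.01 ± 0.53 with an unadjusted p of 0.101 and an adjusted p of 0.729 in limma. In that fit 3.14% of the 45037 probe sets were higher at an unadjusted p under 0.05, and Smoc2 was not among them. Over all these probe sets, 17.1% were higher in both mutant pools. The second Smoc2 probe set read 7.55 and 46.6 against 12.9 and 2.87, and overlapped.

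Thrombospondin 1, an anti-angiogenic glycoprotein, gave different answers on its 2 probe sets. Probe set 1460302_at, the brighter, read 952 and 609 in Cxcr7-/- and 925 and 615 in Control. Replicate 1 was above replicate 2 in both genotypes and the mutant mean was 101% of the control mean, for a log2 fold change of 0.01 ± 0.34 and a 95% interval from -0.78 to 0.81, and of -0.27 without Control replicate 2. Probe set 1450377_at read 460 and 331 in Cxcr7-/-, and 630 and 664 in Control, without overlap. Its log2 fold change was -0.70 ± 0.31 (unadjusted p = 0.0543, adjusted p = 0.501, limma). It stayed between -0.92 and -0.47 as each array was left out. In the fit without a filter its unadjusted p was 0.0454 and its adjusted p 0.653 in limma. The brighter Fn1 probe set had an unadjusted p of 0.0777 in that fit. The 2 probe sets thus gave no common value for Thbs1.

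Thrombospondin 2, which is known to influence collagen fibril structure, had 3 probe sets above the filter. The brightest, 1422571_at, read 5591 and 4017 in Cxcr7-/-, and 3959 and 5302 in Control, and was at 0.05 ± 0.27, or 0.26 without Control replicate 2. The others were higher in both mutant pools by a small amount. Probe set 1447862_x_at read 2885 and 2891 against 2628 and 2117, at 0.29 ± 0.24, or 0.13 without Control replicate 2, and 1450663_at read 1662 and 1480 against 1343 and 1207, at 0.30 ± 0.26. Their adjusted p-values were 0.965, 0.719 and 0.725 in limma. Thrombospondin 3, a pentameric member of the family, read 787 and 508 in Cxcr7-/-, and 479 and 699 in Control, at 0.12 ± 0.34, or 0.39 without Control replicate 2. The brightest Thbs2 probe set and Thbs3 shared an order of pools, in which Cxcr7-/- replicate 1 and Control replicate 2 lay above the other 2 pools. In each, a difference between pools of the same genotype was larger than the difference between genotypes.

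**Figure D3:**
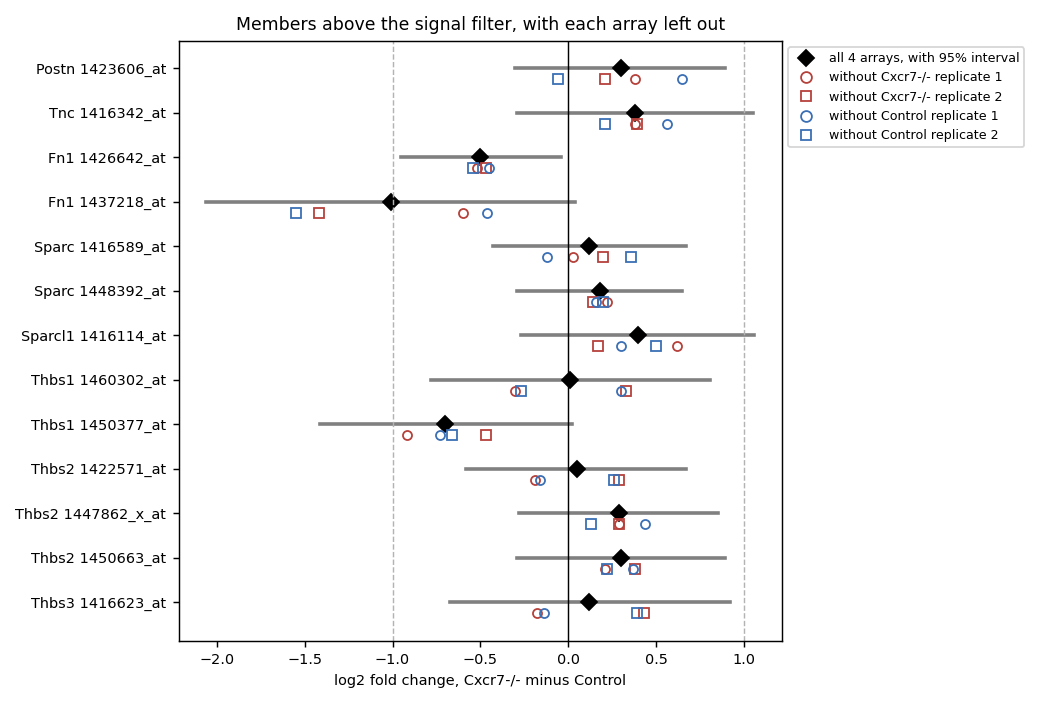
Log2 fold change, Cxcr7-/- minus Control (horizontal axis), of the 13 member probe sets above the filter, with all 4 arrays (diamond, grey bar for the 95% interval) and with each array left out (open symbols). Dashed lines mark a 2-fold difference. The brighter Fn1 probe set stays between -0.54 and -0.45, whereas Postn runs from -0.06 to 0.65.

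The intervals show how large a difference the arrays leave room for. In 9 of the 13 kept probe sets the 95% interval lay inside a 2-fold difference in both directions, beside 37% of all kept probe sets. The other 4 were the dimmer Fn1 probe set, Thbs1 1450377_at, Tnc and Sparcl1. Standard errors among the members ran from 0.20 to 0.46, beside a median of 0.34 over all kept probe sets, whose median absolute log2 fold change was 0.31.

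Closest in structure to the members were 10 other thrombospondins, tenascins, SPARC-family and fasciclin proteins, of which 5 were above the filter. No gene of this or the following lists passed the adjusted threshold in limma. Thbs4, a thrombospondin of tendon and muscle matrix, read 87.4 and 102 in Cxcr7-/-, and 349 and 209 in Control. The mutant pools were below both control pools, with a log2 fold change of -1.33 ± 0.39 (unadjusted p = 0.0101, adjusted p = 0.413). Both mutant signals lie close to the filter's level, a signal of 87.4, and without a filter the unadjusted p for Thbs4 was 0.023 in limma. The other 4 genes of the list overlapped. They included Fstl1, a secreted SPARC-family protein, at 0.10 ± 0.21, and Tgfbi, the closest relative of periostin, at -0.11 ± 0.22. For Fstl1 both mutant pools (45241 and 44290) lay between the control pools (48791 and 35805). The median of the 5 was -0.18, or between -0.47 (Cxcr7-/- replicate 2 left out) and 0.03 (Cxcr7-/- replicate 1 left out), and -0.08 with Control replicate 1 left out, beside 0.00 over all kept genes, of which 50.3% were positive and 7.96% had an unadjusted p under 0.05. By the same measure, 7 of the 8 kept members were positive with a median of 0.12, or -0.07 for all 10 without Cxcr7-/- replicate 1.

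Among CCN proteins and other matricellular genes, 11 of 12 were matched and 9 were above the filter. Of these, 8 were negative and the median was -0.44, or -0.30 after median centring and -0.25 without Cxcr7-/- replicate 1. Below both control pools were 5 of the 9 and above both was 1, beside 19.1% and 21.1% of all kept genes. Ccn1, which encodes an integrin-binding angiogenic protein, read 2976 and 3735 in Cxcr7-/-, and 3943 and 5242 in Control (-0.44 ± 0.26), and its 3 other kept probe sets were also negative but overlapped, from -1.11 to -0.08. Mfge8, an integrin ligand that bridges apoptotic cells to phagocytes, was at -0.60 ± 0.26. Ccn5, which lacks the terminal domain of other CCN proteins, was at -0.80 ± 0.45. The gene above both was Edil3, which encodes an RGD-containing ligand of integrin alpha v beta 3, with 3334 and 3843 against 2285 and 1852 (0.79 ± 0.25, unadjusted p = 0.0131, adjusted p = 0.432). Its other kept probe set, at 1.03 ± 0.47, read 199 and 93.5 against 47.4 and 66.8. Both of those control signals lie below the filter's level of 87.4, so it passed through the Cxcr7-/- pools and is no separate evidence.

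All 12 receptor genes were above the filter, 6 positive and 6 negative, with a median of -0.01, which was 0.13 after median centring and 0.09 without Cxcr7-/- replicate 1. Itgb1, the integrin beta chain shared by the main fibronectin receptors, read 2448 and 2208 in Cxcr7-/-, and 1559 and 1126 in Control. It was higher in both, at 0.80 ± 0.27 (unadjusted p = 0.0188, adjusted p = 0.444), the opposite sign to Fn1. Its 2 other kept probe sets were at 0.79 ± 0.35 and 0.34 ± 0.36, also higher in both. On these, Control replicate 2 (839 and 133) lay further below the mutant pools than Control replicate 1 did (1711 and 189), so their size leaned on Control replicate 2. Itgb3, which pairs with alpha v to bind several members, was at 0.83 ± 0.36. Cd36, a thrombospondin receptor, read 173 and 337 against 489 and 408 (-0.82 ± 0.38), and a second probe set above the filter gave -1.31 ± 0.50. Sdc4, the heparan sulfate co-receptor for fibronectin, was at -0.51 ± 0.30, or -0.78 ± 0.27 on a second probe set. Cd47, another thrombospondin receptor, was at 0.17 ± 0.24.

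Of the 11 matrix partners and assembly enzymes, all above the filter, 8 were negative with a median of -0.21, or -0.07 after median centring and -0.06 without Cxcr7-/- replicate 2. Lox, the enzyme that crosslinks collagen and elastin and is activated with the help of periostin and fibronectin, read 1291 and 2022 against 2903 and 2641 (-0.77 ± 0.29, unadjusted p = 0.0292, adjusted p = 0.459), while its other kept probe set overlapped at -0.25 ± 0.53. Bmp1, the protease that processes procollagens, was at -0.29 ± 0.27 on its brightest probe set and at 1.11 ± 0.41, higher in both mutant pools, on its other kept one, so its probe sets disagree. Col6a2 and Col5a1, collagen chains of microfibrils and of fibril cores, were at -0.41 ± 0.23 and -0.20 ± 0.20. The other kept probe set of Col6a2 was at -0.38 ± 0.25, and those of Col5a1 overlapped at -0.13 ± 0.23 and 0.20 ± 0.39.

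The list of regulators held growth factors and transcription factors known to act on these genes. Of 13, 12 were above the filter, 8 of them negative, with a median of -0.23, or -0.09 after median centring. Tgfb1, a classical inducer of fibronectin and periostin, read 50.9 and 76.2 in Cxcr7-/-, and 154 and 199 in Control (-1.22 ± 0.41). Both mutant signals lie below the filter's level of 87.4, so this probe set passed through the Control pools, and without a filter its unadjusted p was 0.0478 in limma. The other kept Tgfb1 probe set overlapped at 0.10 ± 0.50, so the lower signal was seen on 1 of 2. Tgfb3 read 1112 and 817 against 1454 and 1618 (-0.67 ± 0.28, unadjusted p = 0.0429, adjusted p = 0.479). Srf, the factor that binds CArG boxes with myocardin-related cofactors, was at -0.75 ± 0.33, while its other kept probe set overlapped at 0.04 ± 0.41. Prrx1, a mesenchymal homeobox factor, was at 0.51 ± 0.24, and its 3 other kept probe sets ran from 0.52 to 1.03, with both mutant pools higher on each. The largest, 1439774_at at 1.03 and 1432129_a_at at 0.97, leaned on Control replicate 2, which read 590 and 97.1 where Control replicate 1 read 1136 and 215. Of the 17 related genes named for pools that did not overlap, 4 moved by more than 1.5 times when Control replicate 2 was left out. They went to -0.24 for Ccn1, -0.18 for Sdc4, -0.20 for Col6a2 and 0.31 for Prrx1. Leaving out a Cxcr7-/- array moved other genes as well. Without Cxcr7-/- replicate 1, Ccn5 was at -0.28, Cd36 at -0.38, Lox at -0.45 and Srf at -0.38. Without Cxcr7-/- replicate 2, Bmp1 was at -0.06, Itgb3 at 0.44 and Mfge8 at -0.36. Leaving out the other mutant array instead made each of these larger in size.

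**Figure D4:**
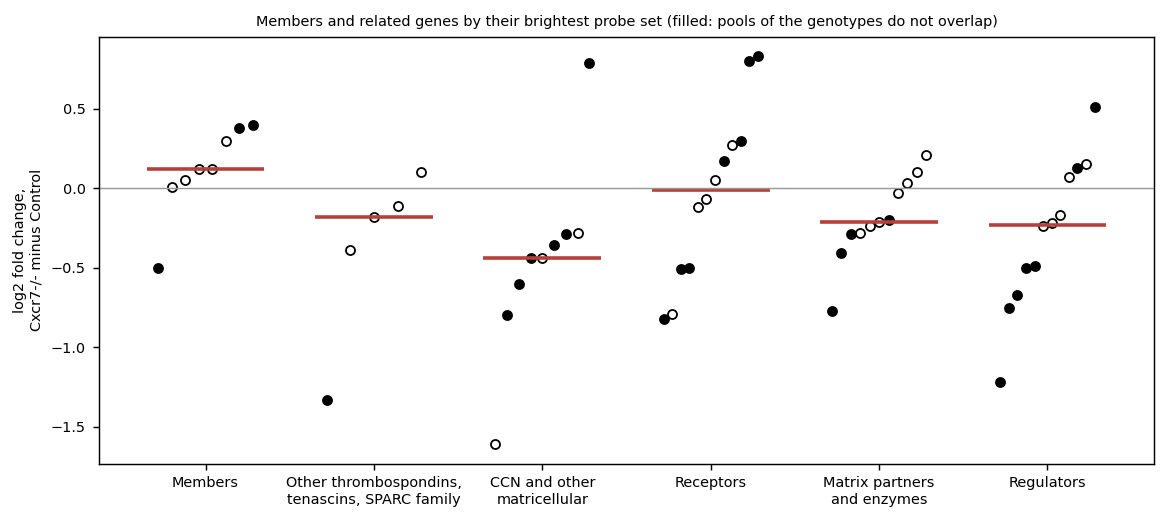
Log2 fold change, Cxcr7-/- minus Control (vertical axis), of the members and of the 5 related lists, 1 point per gene above the filter by its brightest probe set. Filled points mark genes whose pools do not overlap between genotypes and red bars the median of each list, which lies at 0.12 for the 8 kept members and at -0.44 for the CCN and other matricellular genes.

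Promoter sequence was at hand for 6 of the 10 members from RefSeq (GRCm38.p6), in 8 windows of 250 bases before a start site. Fn1, Sparcl1, Thbs1 and Smoc2 had no window. The windows of Tnc overlap each other, so the 8 are not all separate and some matches are counted in both. CAGACA, the core letters of a Smad-binding element through which TGF-beta signals reach DNA, was searched on both strands. It occurred in windows of Sparc, Thbs2 and Tnc, 3 of the 8 windows, beside 17.1% of 32851 such windows. These 3 windows are shown because they are all the member windows that hold the letters. Capitals mark CAGACA or its reverse complement, and positions count back from the start site.
Sparc, chr11:55420081-55420330, minus strand: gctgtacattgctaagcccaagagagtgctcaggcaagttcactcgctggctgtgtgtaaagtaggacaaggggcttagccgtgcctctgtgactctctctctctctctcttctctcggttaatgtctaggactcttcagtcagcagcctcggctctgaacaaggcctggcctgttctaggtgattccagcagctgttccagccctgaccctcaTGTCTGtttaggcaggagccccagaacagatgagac
Thbs2, chr17:14694263-14694512, minus strand: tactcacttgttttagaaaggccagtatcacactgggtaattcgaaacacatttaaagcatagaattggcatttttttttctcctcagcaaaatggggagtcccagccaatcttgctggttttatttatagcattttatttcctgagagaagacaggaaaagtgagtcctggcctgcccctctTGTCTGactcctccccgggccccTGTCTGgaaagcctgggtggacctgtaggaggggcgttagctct
Tnc, chr4:64046937-64047186, minus strand: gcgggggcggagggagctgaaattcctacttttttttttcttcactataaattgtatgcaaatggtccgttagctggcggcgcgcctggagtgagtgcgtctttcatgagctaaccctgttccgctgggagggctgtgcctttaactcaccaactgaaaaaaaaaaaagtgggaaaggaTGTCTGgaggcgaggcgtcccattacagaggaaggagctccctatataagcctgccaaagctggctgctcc
The Sparc match begins at -36 and the Thbs2 matches begin at -67 and -44. In Tnc the match begins at -71 of the second of its 2 listed start sites. The E-box CANNTG was in 6 of the 8 windows, beside 66.2% of all windows, and TGANTCA, the AP-1 letters, was in the Tnxb window alone, beside 6.75%. CATTCC, the TEAD letters, and the CArG box were in 0 of the 8 windows, beside 12.6% and 1.47% of all. These matches are descriptions of letters and carry no evidence of binding.

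The median signal was 84.5 and 92.5 in Cxcr7-/-, and 110 and 89.9 in Control. For Gapdh the 3' excess ran from 8.20-fold to 24.2-fold, highest in Control replicate 2. Cxcr7 itself read 28.3 and 328 in Cxcr7-/-, and 4936 and 5698 in Control, in the direction of the labels. Macrophage markers were positive for 6 of 6 genes, with a summed signal of 14803 and 12994 against 9918 and 8476, and lung epithelial markers were negative for 4 of 4, with 1290 and 1469 against 4140 and 7734. Neuronal and Schwann cell markers were higher in both mutant pools for 4 of 4 genes, with a summed signal of 1296 and 1132 against 561 and 510. Of the erythroid markers 2 were above the filter and both overlapped, and of the cartilage markers 2 were above it, 1 higher and 1 lower in both mutant pools. The part of these differences in the members' values was not tested.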

How the data were processed

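Deposited by the authors was a table of intensity, linear and not log-transformed, with a signal for each probe set on each array. Per the submitters' processing notes the authors used Affymetrix Expression Console and MAS5; no versions are stated. Per the labels, RNA was amplified in 2 cycles, which shortens the product and lowers signal far from the 3' end. Genes came from the array's annotation table (34945 probe sets with 1 symbol, 932 with several, 9160 with none), updated by gene identifier, and no probe was aligned to a genome.

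Signals were taken as log2(signal + 22), 22 being the rounded 25th percentile of values. After setting 64 control probe sets aside, 22518 of 45037 passed the filter at the median. The test was limma's (version 3.58.1, R 4.3.3; two-sided, lmFit and a trended eBayes), and p-values were adjusted over these by the Benjamini-Hochberg method. An exact permutation of 2 against 2 pools cannot go below 0.333 and was not used. The labels call the pools biological replicates, so the tests set the genotype difference against variation between pools. The variance of each probe set was drawn towards the trend over all kept probe sets, with 5.85 prior against 2 residual degrees of freedom. The number of arrays limits the precision.

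Every member probe set is reported. Each gene was represented by its brightest probe set (other kept ones are given for the genes named), and of each related list up to 4 genes with the largest fold changes and no overlap between genotypes were to be named; Cd47, Fstl1 and Tgfbi were named after their values were seen. Members and lists were chosen with earlier results of these data known. Alternatives were other pseudocounts, filters and normalizations, no trend, a replicate block and leaving out each array.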

Additional observations from a re-analysis of the deposited data

How the results depend on the processing

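The 13 kept member probe sets had 103 refits with another pseudocount, filter, normalization, variance model or a replicate block. None passed the adjusted threshold, and every log2 fold change kept its sign. Only another pseudocount or normalization could have changed a sign. In this balanced design the filter, the variance model and the replicate block leave the fold change itself as it was. Over 52 refits with 1 array left out, 8 changed sign and none passed. Those were Postn (range -0.06 to 0.65), Sparc 1416589_at (-0.12 to 0.36), Thbs1 1460302_at (-0.30 to 0.33), Thbs2 1422571_at (-0.19 to 0.29) and Thbs3 (-0.18 to 0.43). The sign changed for Postn without Control replicate 2, Sparc without Control replicate 1 (-0.12), Thbs1 without Cxcr7-/- replicate 1 or Control replicate 2 (-0.30 and -0.27), and Thbs2 and Thbs3 without either replicate 1 (-0.19 and -0.16, and -0.18 and -0.14). The cause was not tested. The number of all probe sets past the adjusted threshold was 0 with every alternative in which all arrays were kept, except the crossed replicate block, and ran from 0 to 673 as arrays were left out, with 8 without Cxcr7-/- replicate 2 and 673 without Control replicate 1. Same-numbered pools did not deviate together (correlation of deviations -0.262). With the replicate block 0 of all probe sets passed, and no member probe set had an unadjusted p under 0.05. With the crossed replicate block, a pairing added after the data were seen, 5 passed, and 3 member probe sets had an unadjusted p under 0.05. Kept member probe sets 2-fold or more apart in each pairing of pools numbered 0 with all arrays. The number ran from 0 to 1 as arrays were left out, the 1 being Fn1 1437218_at without Control replicate 2. The limma model gave Fn1 1426642_at an unadjusted p of 0.155 with median centring, 0.118 without the trend, 0.0871 with the replicate block, 0.0777 without a filter, and 0.153 and 0.194 without a Cxcr7-/- array, against 0.0370 with all arrays. Averaging all probe sets of a gene gave -0.75 for Fn1, 0.17 for Tnc, 0.21 for Thbs2 and 0.81 for Smoc2 on the log2 scale, and changed the sign for Sparc (-0.01, from 0.12) and Thbs1 (-0.34, from 0.01). Dim probe sets, such as those of Smoc2, Tnxb and the second of Tnc, have some signals close to or below the pseudocount, where MAS5 signals carry large relative errors.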
